A study of Mus musculus with 15 samples.

Results

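The 10 genes described here encode the machinery of the G1 phase of the cell cycle and its brakes. They are the D-type cyclins Ccnd1, Ccnd2 and Ccnd3, the E-type cyclins Ccne1 and Ccne2, the kinases Cdk4 and Cdk6, and the CDK inhibitors Cdkn1a (p21), Cdkn1b (p27) and Cdkn2c (p18). They were taken as a list of symbols, and no measured value entered the rule itself, but earlier results of these data were known when the list was chosen. All 10 of the 10 were found among the 32372 genes of the files, and all 10 passed the filter on low counts, which left 14260 genes for testing. Their levels were followed in microglia, the resident macrophages of the brain, over 5 groups of mice and the 3 deposited clusters of cells.

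Every mouse was a 3.5-month-old male of the hTfR KI line on C57BL/6J, in which human transferrin receptor sequence is knocked in. Each received a single antibody dose of 10 mg/kg. ATV:4D9 is directed against TREM2, a receptor of microglia, and its Fc, the antibody transport vehicle (ATV), binds the transferrin receptor so that the antibody can reach the brain. ATV:RSV carries the same vehicle with a control binding part. ATV:4D9 mice formed 4 groups, by the time since the dose (1, 7, 14 or 28 days), and ATV:RSV mice formed 1 group, sampled after 1 day. Each group had 3 mice, and each of 3 batches had 1 mouse of every group. The later days thus lacked a control of their own, and all comparisons with a control rested on the same 3 ATV:RSV mice.

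Cells of the cortex and hippocampus were enriched with CD45 beads, and their transcripts were counted from the 3′ end by unique molecular identifiers (UMIs). The 15 mice gave 102043 cells (5667 to 7596 a mouse) and between 32341960 and 70307384 UMIs a mouse. In each mouse 99.78% to 100% of the cells had UMIs of 3 or more of 10 microglia markers, and 971 cells in all had 3 or more markers of another cell type. The cells of ATV:4D9 day 1 mice were deeper, with medians of 8202 to 8996 UMIs per cell against 4975 to 5750 in ATV:RSV mice. The 10 microglia markers summed to 16140 to 18010 CPM in them against 24210 to 25850 CPM in ATV:RSV mice, and 9 of the 10 fell. All 6 oligodendrocyte markers and 5 of 6 neuron markers also fell, and the 6 astrocyte markers (1 fell) summed to 116 to 121 against 221 to 271 CPM. The 5 monocyte markers summed to 13.9 to 17.98 against 4.51 to 11.5 CPM (of 4 tested, 2 rose and 1 fell). Endothelial (12.4 to 17.3 against 21.1 to 28.3 CPM, 2 of 6 rose and 1 fell) and B cell sums (205 to 223 against 229 to 278 CPM, 1 of 3 tested fell) were lower without overlap, and 2 of 6 border-associated macrophage markers rose. With the scaling used for the 10 genes, the median log2 fold change of the B cell markers tested was 0.03. The median share of mitochondrial UMIs per cell was 3.96% to 4.50% against 3.11% to 3.38%. The part of these differences in the results was not tested. Of 100747 barcode sequences, 1283 (1.27%) occurred in more than 1 library.

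In G1, D-type cyclins pair with CDK4 or CDK6 and phosphorylate the retinoblastoma protein, which frees E2F factors to switch on the genes of DNA replication and the E-type cyclins. Cyclin E with CDK2 then drives entry into S phase. The CIP/KIP inhibitors p21 and p27 bind whole cyclin-CDK complexes, and the INK4 inhibitors, p18 among them, bind CDK4 and CDK6 themselves. Adult microglia seldom divide, and TREM2 signalling is known to favour their survival and proliferation.

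At day 1 after ATV:4D9, all 10 genes differed from ATV:RSV. Cyclins of both types, both kinases, Cdkn1a and Cdkn2c rose, and Cdkn1b fell. Levels are UMI counts per mouse scaled to library size by TMM (CPM), and a gene was called at an adjusted p under 0.05 (limma-voom, Benjamini-Hochberg over all genes tested). Of all genes tested, 69.2% were called at day 1 (34.7% higher and 34.6% lower), so the count of 10 of 10 stands before a background in which most genes moved. The median log2 fold change was 1.40 over the 10 genes and -0.05 over all genes. Scaling by library size alone moved the median of all genes to -0.29 and left 34.65% of the calls higher, and counts per cell moved it to 0.32 with 78.67% of the calls higher, against 50.06% with TMM. The 10 genes kept their directions under both. In all 10 genes the CPM of the 3 treated mice lay outside the range of the 3 control mice, as it did in 71.5% of all genes tested. Each of the 3 batches gave the same direction.

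**Figure D1:**
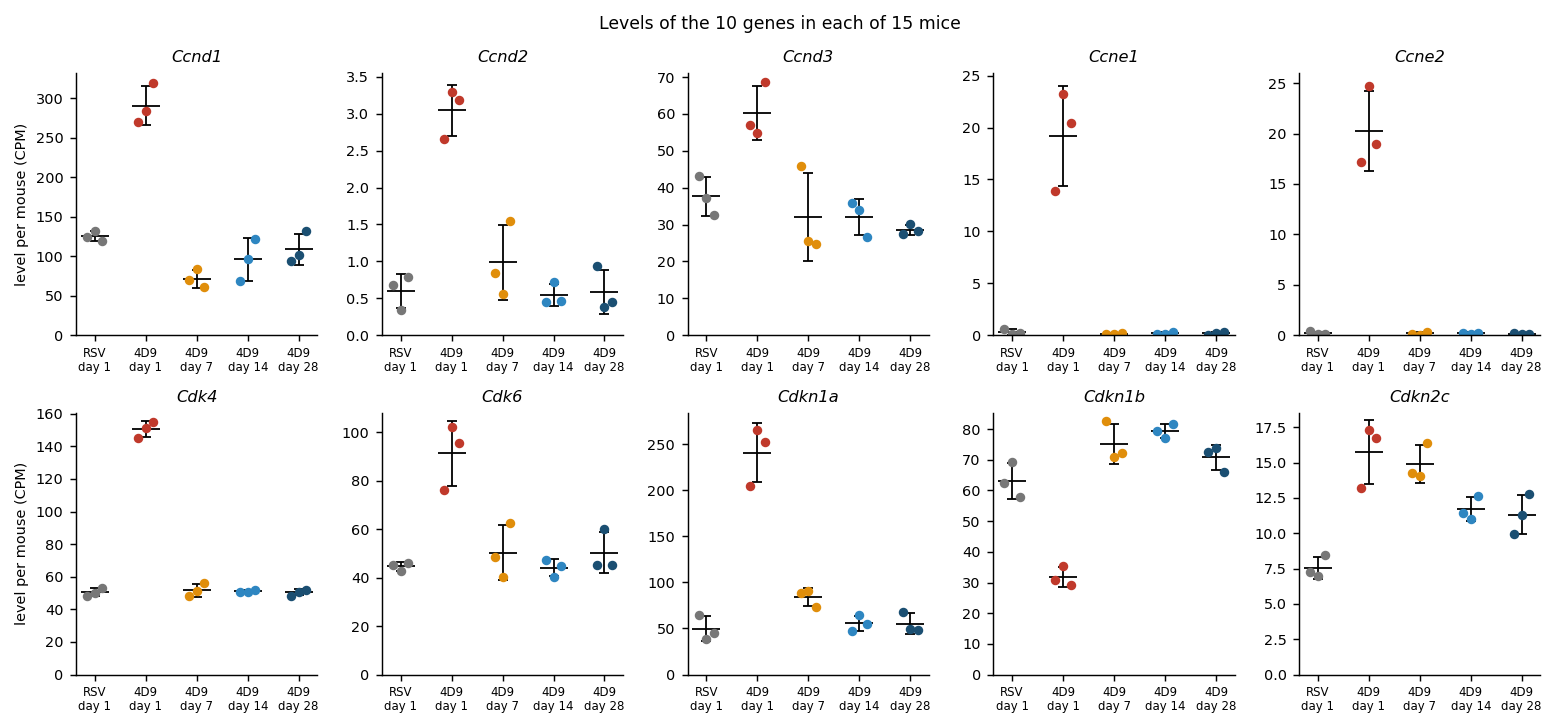
Level of each gene in CPM (vertical axes, from 0) in the 3 mice of each of the 5 groups (points), with the mean (line) and SD (whiskers). The day 1 ATV:4D9 mice lie above the control mice in 9 genes and below them in Cdkn1b, and in Cdkn2c the mice of days 7, 14 and 28 also lie above every control mouse.

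Ccnd1, cyclin D1 (mm10 chr7:144929931-144939925, minus strand, GENCODE annotation), stood at 124, 132 and 119 CPM in the 3 ATV:RSV mice and at 270.0, 283 and 318 CPM in the 3 ATV:4D9 day 1 mice. The groups did not overlap, and Ccnd1 rose by 1.21 ± 0.16 (log2 fold change ± SE, adjusted p = 6.80e-06).

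Ccnd2, cyclin D2 (chr6:127125162-127152193, minus strand), was sparse, with 14 to 33 UMIs per ATV:RSV mouse and 149 to 202 per ATV:4D9 day 1 mouse. Its levels were 0.675, 0.338 and 0.787 CPM in ATV:RSV and 2.65, 3.30 and 3.19 CPM at day 1, again without overlap. This was a rise of 2.38 ± 0.34 (adjusted p = 1.33e-05).

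Ccnd3, cyclin D3 (chr17:47505051-47599691, plus strand), had the smallest fold of the cyclins. ATV:RSV mice had 43.2, 37.3 and 32.5 CPM and day 1 mice 57.1, 54.9 and 68.6 CPM, a rise of 0.67 ± 0.17 (adjusted p = 0.00246). The call was lost without the cells of the S and G2/M classes, described below.

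The E-type cyclins went from near absence to well-counted levels. Ccne1, cyclin E1 (chr7:38097984-38107534, minus strand), had 29, 6 and 8 UMIs in the whole of each ATV:RSV library and 882, 1424 and 957 at day 1. In CPM these were 0.593, 0.145 and 0.191 against 13.9, 23.3 and 20.5. Ccne1 rose by 6.08 ± 0.61 (adjusted p = 2.37e-07). The 3 batches gave log2 differences of 4.52, 7.23 and 6.67.

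Ccne2, cyclin E2 (chr4:11191351-11204779, plus strand), followed the same course. It had 19, 5 and 4 UMIs in the ATV:RSV mice and 1092, 1515 and 887 at day 1, which were 0.388, 0.121 and 0.0954 CPM against 17.2, 24.7 and 19.0 CPM. Ccne2 rose by 6.78 ± 0.53 (adjusted p = 1.26e-08). With so few control UMIs the size of both folds is imprecise, while the groups lay far apart.

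Cdk4, the kinase partner of the D-type cyclins, had the smallest SE of the 10 genes. It was at 48.0, 50.3 and 53.04 CPM in ATV:RSV and at 145, 151 and 155 CPM at day 1. Cdk4 rose by 1.58 ± 0.06 (adjusted p = 1.61e-12), and the 3 batches gave 1.60, 1.59 and 1.55. Its relative Cdk6 (chr5:3341485-3531008, plus strand) was at 45.1, 42.7 and 46.2 CPM in ATV:RSV and at 76.4, 102 and 95.6 CPM at day 1. Cdk6 rose by 1.02 ± 0.14 (adjusted p = 9.74e-06), with more spread among the treated mice than Cdk4.

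The promoter of Cdk4 is shown because it is the window among those at hand with the most matches of the letters searched. RefSeq windows of 250 bases before the transcription start (GRCm38.p6) were held for 7 of the 10 genes, 10 windows in all. Each was searched on both strands for the E-box CACGTG, which Myc and related factors bind, for the CCAAT box CCAAT and for the E2F letters TTTCCCGC, TTTGGCGC, TTTCGCGC and TTTGCCGC. The Cdk4 window (chr10:127063285-127063534, plus strand) held 4 E-boxes, in capitals, at 172, 118, 98 and 11 bases before the start. It ends at the first base of the gene in the GENCODE annotation (chr10:127063534-127067920).
Cdk4 promoter: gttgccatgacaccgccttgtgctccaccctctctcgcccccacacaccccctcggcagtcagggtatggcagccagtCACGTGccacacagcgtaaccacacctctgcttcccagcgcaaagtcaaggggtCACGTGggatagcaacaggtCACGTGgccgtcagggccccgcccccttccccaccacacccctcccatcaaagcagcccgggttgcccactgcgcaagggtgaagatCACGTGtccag
Of 32851 such windows of all genes, 6.02% held at least 1 E-box and 7 windows (0.0213%) held 4 or more. A Cdk6 window held 1 E-box. None of the 10 windows held the E2F letters, which 1.86% of all windows held. These are matches of letters and say nothing about what binds there.

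Cdkn1a (chr17:29090976-29100727, plus strand) encodes p21, which p53 and other stress and growth signals induce. ATV:RSV mice had 65.0, 38.6 and 45.4 CPM and day 1 mice 205, 265 and 253 CPM. Cdkn1a rose by 2.30 ± 0.17 (adjusted p = 8.37e-09), the highest fold of the 3 inhibitors.

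Cdkn1b encodes p27, which is high in resting cells, and it was the only one of the 10 that fell. It stood at 62.4, 69.2 and 57.8 CPM in ATV:RSV and at 30.8, 35.3 and 29.1 CPM at day 1. Cdkn1b fell on the log2 scale, a change of -0.99 (SE 0.08, adjusted p = 2.71e-08), and the batches gave -1.02, -0.97 and -0.99. The log2 fold change was -0.63 with counts per cell and -1.23 with library size alone, called under both.

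The Cdkn1b window (chr6:134920151-134920400, plus strand, directly before the gene at chr6:134920401-134925513) is shown beside that of Cdk4 as the promoter of the gene that went the other way. It held no E-box and 2 CCAAT boxes, in capitals, at 161 and 35 bases before the start.
Cdkn1b promoter: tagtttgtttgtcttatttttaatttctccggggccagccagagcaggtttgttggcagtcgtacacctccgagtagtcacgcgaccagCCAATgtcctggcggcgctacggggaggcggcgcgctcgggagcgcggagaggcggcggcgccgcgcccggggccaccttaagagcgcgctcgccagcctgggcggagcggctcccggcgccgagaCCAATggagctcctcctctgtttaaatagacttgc
At least 1 CCAAT box stood in 33.8% of all windows and at least 2 in 10.1%, so this feature is common.

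Cdkn2c (chr4:109660876-109667189, minus strand) encodes p18, an INK4 inhibitor of CDK4 and CDK6. It was at 7.28, 6.97 and 8.42 CPM in ATV:RSV and at 13.2, 17.3 and 16.7 CPM at day 1. Cdkn2c rose by 1.05 ± 0.13 (adjusted p = 2.12e-06). The direction of this change depended on which cells were counted, as set out below.

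The share of cells with a UMI was also taken, with cells of 3385 UMIs or more reduced at random to 3385 UMIs. Shallower cells were left out, 3.93% to 5.79% of cells in ATV:4D9 day 1 mice and 8.69% to 17.8% in ATV:RSV mice. At this depth the share largely follows the mean level. Like the sums per mouse, it does not separate more cells with a transcript from more UMIs in each cell. For Ccnd1 the shares were 32.4%, 34.6% and 31.9% in ATV:RSV and 49.1%, 50.5% and 54.7% at day 1. For Cdk4 they were 15.6% to 18.2% against 34.4% to 35.2%, and for Cdkn1a 8.25% to 11.2% against 27.2% to 32.7%. Cdkn1b was found in 18.2% to 20.9% of the ATV:RSV cells and in 8.23% to 10.6% of the day 1 cells. These shares moved the same way as the CPM, at equal depth, and are no separate support.

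The E-type cyclins stayed rare per cell even at day 1. A Ccne1 UMI was found in 0.0524% to 0.187% of thinned ATV:RSV cells and in 3.45% to 5.99% of day 1 cells. For Ccne2 the shares were 0.0350% to 0.109% and 3.96% to 5.76%, and for Cdkn2c 2.09% to 3.04% and 3.67% to 4.52%. Before thinning, the mean shares at day 1 were 10.8% for Ccne1 and 11.3% for Ccne2. All cells in the files are labelled microglia, so no share in a cell type that should lack these genes could be set beside them.

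In shares of thinned cells, 9 genes were higher and 1 lower at day 1 without overlap between the groups, against 68.9% of all genes tested that separated in this way. The mean number of the 10 genes with a UMI per thinned cell was 1.05 to 1.09 in ATV:RSV mice and 1.66 to 1.85 at day 1. Cells with no UMI of any of the 10 made up 30.3% to 31.5% in ATV:RSV and 11.5% to 14.9% at day 1.

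Next, the 10 genes were set against a score of cell cycle transcripts. Thinned cells were put in a G2/M class when they had UMIs of 3 or more of 30 G2/M genes, otherwise in an S class when they had UMIs of 3 or more of 29 S phase genes, and otherwise in neither. None of the 10 genes is on these lists. At day 1, 63.9% to 67.8% of the treated cells were in the S class and 8.07% to 12.6% in the G2/M class, against 5.78% to 6.22% and 0.107% to 0.437% in ATV:RSV. The classes are ranges of a score, and the S class alone does not place a cell in S phase. At day 1, 1958 cells lay just below the S cut with 2 genes and 2054 just on it with 3, and 1279 and 628 cells lay on either side of the G2/M cut. In the other 4 groups, 3567 of the cells with at least 3 S phase genes lay on the cut itself and 800 lay above it, so most of their S class was near the cut. At day 1, 12843 cells lay above the S cut. This count takes in cells of the G2/M class, since the S class held 12831 cells in all. The classes also differed in depth as deposited, with medians of 7596 UMIs per cell in neither, 9034 in S and 10276 in G2/M.

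Within the 3 day 1 mice, the E-type cyclins climbed from class to class. Ccne1 was at 1.80 ± 0.411 CPM (SD, n = 3 mice) in neither, 10.6 ± 1.72 in S and 76.0 ± 8.56 in G2/M. Ccne2 was at 0.999 ± 0.248, 11.4 ± 0.906 and 82.0 ± 9.62 CPM. Cyclin E is known for its role at the G1/S boundary, and these transcripts were highest in cells of the G2/M class. That class was filled first, and most of its 2080 cells also passed the S cut. Of the day 1 cells, 2054 had 3 and 12843 had 4 or more S phase genes, but only 12831 were in the S class. The G2/M class thus mostly held cells with transcripts of both lists, and these values do not place a peak in G2/M. The levels in the classes did not overlap in either gene.

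Cdkn2c had the same order, at 3.29 ± 0.747 CPM in neither, 9.18 ± 0.508 in S and 57.8 ± 2.74 in G2/M. The G2/M class held 9.31% to 14.3% of all UMIs of the classed cells at day 1 but 44.8% to 55.6% of the Cdkn2c UMIs. It held 52.3% to 60.3% of the Ccne1 UMIs and 51.7% to 60.8% of the Ccne2 UMIs. The neither class held 16.8% to 24.6% of all UMIs and 3.07% to 7.09% of those of Cdkn2c.

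Cdkn1a had another order. It was at 215 ± 30.8 CPM in neither, lower at 162 ± 15.4 CPM in S, and at 510.4 ± 68.6 CPM in G2/M. A UMI was found in 24.2%, 28.4% and 28.6% of the S class cells and in 53.1%, 58.1% and 54.4% of the G2/M class cells of the 3 mice.

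The classes were cut on cell cycle transcripts of these same cells, so a gene that goes with those transcripts will tend to differ between them. The p-values of the class comparisons describe this and are no independent support. In the fit with the mouse as a block, all 10 genes differed between S and neither, where 42.4% of 11749 genes were called (21.7% higher and 20.8% lower). The largest steps were those of the E-type cyclins, with Ccne1 up by 2.54 ± 0.18 (adjusted p = 1.72e-12) and Ccne2 by 3.42 ± 0.21 (adjusted p = 1.36e-13). Cdkn2c followed with 1.43 ± 0.13, Cdk4 with 0.63 ± 0.03 and Ccnd3 with 0.45 ± 0.04. Ccnd2, Cdkn1a and Cdkn1b were lower in S, at -0.47 ± 0.16, -0.39 ± 0.05 and -0.32 ± 0.05. Without the block, where 17.2% of genes were called, 6 of the 10 calls were left, and those of Ccnd1, Ccnd2, Cdk6 and Cdkn1b were lost. The Ccnd2 call was lost in 5 of 9 alternatives, also without day 1 mouse 2 or mouse 3, without the filter on low counts and with classes cut at 2 genes. The Ccnd1 call was lost in 2 of 9, also with classes cut at 4 genes (0.05, adjusted p = 0.208).

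Between G2/M and neither, 9 of the 10 differed, where 62.8% of genes were called (31.0% higher and 31.8% lower). Ccne2 was higher in G2/M by 6.27 ± 0.21, Ccne1 by 5.39 ± 0.18, Cdkn2c by 4.09 ± 0.13, Cdkn1a by 1.26 ± 0.05 and Ccnd3 by 1.06 ± 0.05. Ccnd1 and Ccnd2 were lower, at -0.23 ± 0.03 and -1.14 ± 0.24. Cdkn1b did not pass the test, at 0.03 ± 0.07 (adjusted p = 0.679). Without the block 8 of the 10 were called, against 43.9% of genes, and the Ccnd1 call was lost (-0.23, adjusted p = 0.0581).

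Between S and G2/M, all 10 differed, where 50.6% of genes were called (23.9% higher and 26.8% lower in S). Ccnd1 (0.37 ± 0.03) and Ccnd2 (0.68 ± 0.24) were higher in S, the latter without a call when day 1 mouse 2 or mouse 3 was left out. The other 8 genes were higher in G2/M, from Cdk6 (-0.21 ± 0.04) to Ccne2 (-2.85 ± 0.06). Cdkn1a was at -1.66 ± 0.05. Without the block 8 of the 10 were called, against 30.3% of genes, and the calls of Ccnd2 (0.64, adjusted p = 0.123) and Cdk6 (-0.22, adjusted p = 0.217) were lost.

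**Figure D2:**
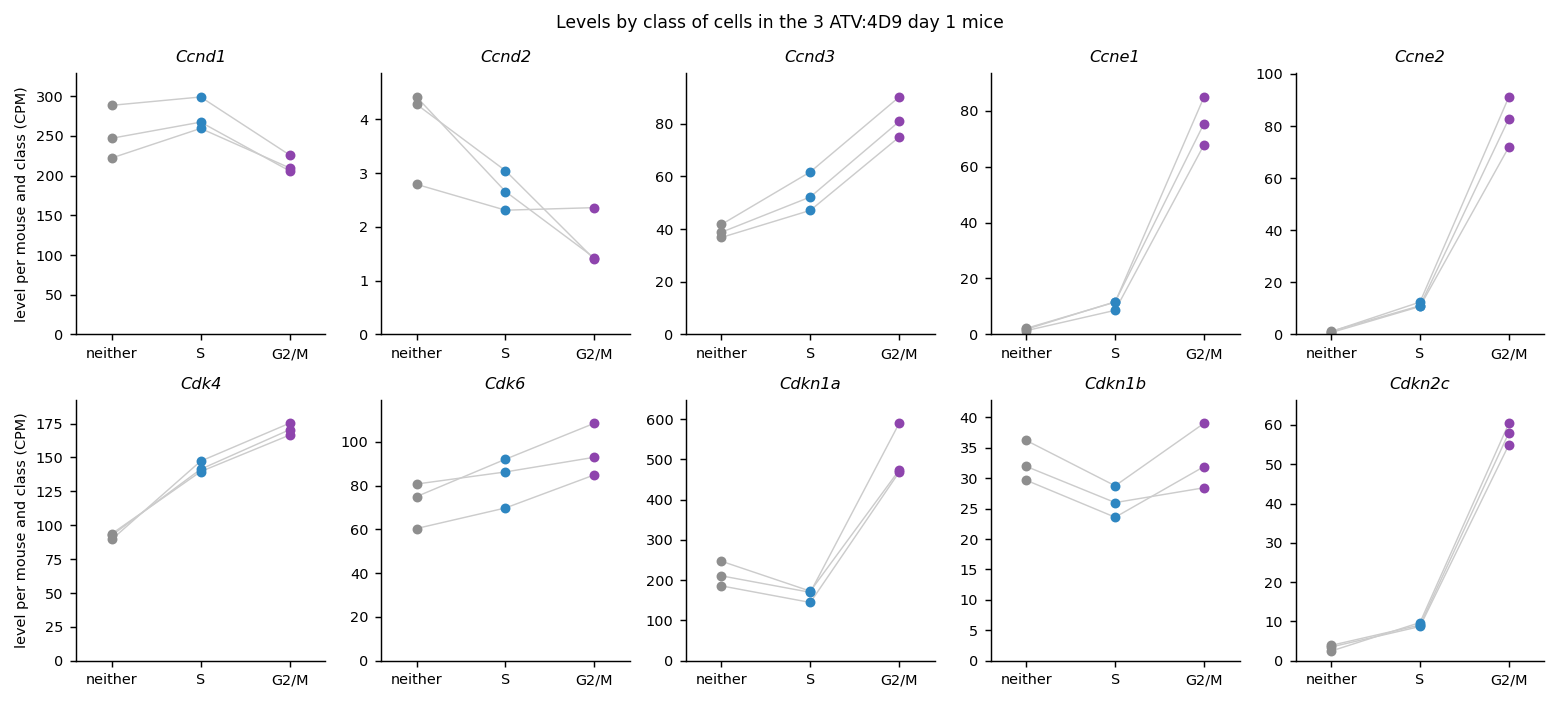
Level in CPM (vertical axes, from 0) of each gene in the cells of neither, the S and the G2/M class of the 3 ATV:4D9 day 1 mice (points, grey lines join the classes of a mouse). Ccne1, Ccne2 and Cdkn2c step up to the G2/M class in every mouse, and Cdkn1a dips in the S class.

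The comparison of day 1 with ATV:RSV was then repeated in cells of neither class only, 1282 to 1919 cells in each day 1 mouse. Of the 10 genes, 9 were called there, where 56.1% of 13701 genes were called. The cells compared lay in different clusters, since 74.6% of the day 1 cells of neither class were in the deposited cluster 2, which held 76 to 165 cells of each ATV:RSV mouse in all. The part of this in the values below was not tested. Cdkn1a rose by 2.31 ± 0.16 and Ccnd1 by 1.13 ± 0.17, close to their values over all cells. Ccnd2 rose by 2.72 ± 0.33, Cdk6 by 0.82 ± 0.15 and Cdk4 by 1.02 ± 0.06, and Cdkn1b was at -0.81 ± 0.09 (adjusted p = 1.67e-06).

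The E-type cyclins were called in these cells with smaller folds, Ccne1 at 3.48 ± 0.46 (adjusted p = 7.35e-06) and Ccne2 at 3.13 ± 0.37 (adjusted p = 1.94e-06). Their UMIs were few, 18 to 24 for Ccne1 and 7 to 20 for Ccne2 in a day 1 mouse. Ccnd3 was the one gene not called, at 0.25 ± 0.20 (adjusted p = 0.311), with 38.3, 36.1 and 39.1 CPM at day 1 and 44.0, 37.4 and 33.3 CPM in ATV:RSV, here by the total UMIs of these cells.

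Cdkn2c changed direction. In cells of neither class it was at 6.51, 7.02 and 8.42 CPM in the ATV:RSV mice and at 3.45, 3.83 and 2.30 CPM in the day 1 mice, again without overlap but now lower. The log2 fold change was -0.90 ± 0.22 (adjusted p = 0.00232), on 24 to 59 UMIs per day 1 mouse. The p18 transcript was thus lower than in controls in cells outside the S and G2/M classes, which were mostly cluster 2 cells at day 1 and mostly cells of clusters 0 and 1 in the controls, and higher in the sum over all cells.

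**Figure D3:**
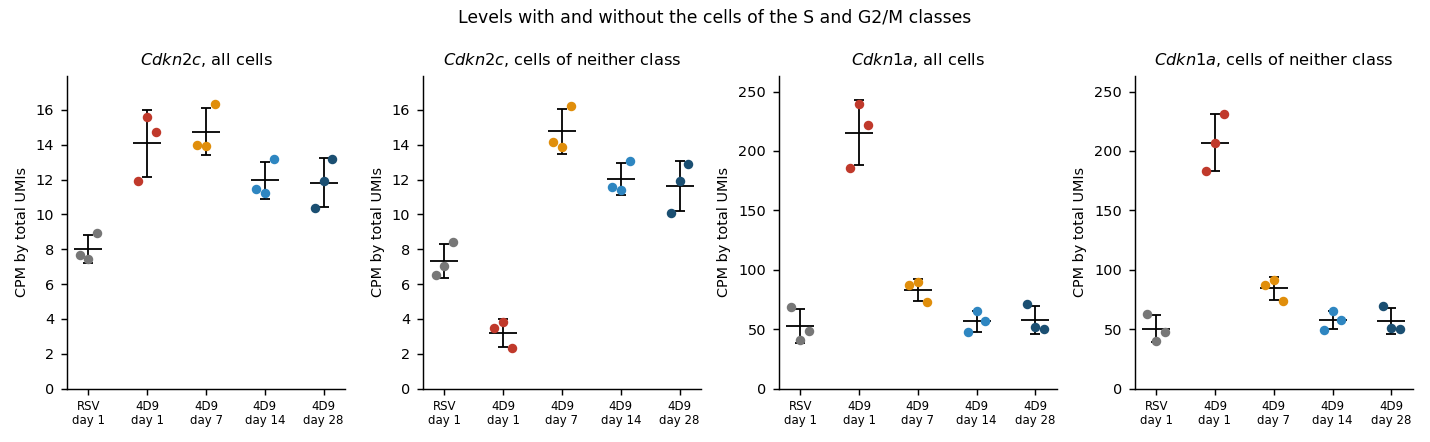
Level of Cdkn2c (left pair) and Cdkn1a (right pair) in CPM by total UMIs (vertical axes, from 0) in the 3 mice of each group, over all cells and over cells of neither class, with the mean (line) and SD (whiskers). For Cdkn2c the day 1 ATV:4D9 mice lie above the control mice over all cells and below them in neither class, and for Cdkn1a they lie above in both.

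At day 7, 3 of the 10 genes were called, Cdkn2c and Cdkn1a higher and Ccnd1 lower. This was 3 of 10 against 3.98% of all genes tested (2.99% higher and 0.996% lower). That background depended on scaling. Library size alone called 1199 genes (26.44% of them higher) and counts per cell 308 (51.62% higher), against 568 (75% higher) with TMM. Of the 10 microglia markers 3 also fell, and by total UMIs all 10 summed to 22040 to 22520 CPM, below every ATV:RSV mouse. The sums of 6 neuron markers (6.39 to 7.73 against 9.51 to 12.3 CPM, 1 fell) and 6 endothelial markers (at most 17.0 CPM against 21.1 to 28.3 CPM, 1 fell) were lower without overlap. So was that of 6 border-associated macrophage markers (13.8 to 14.5 against 16.2 to 19.3 CPM, none called). The median mitochondrial share was higher (3.49% to 4.04% against 3.11% to 3.38%). The part of these in the day 7 results was not tested. The E-type cyclins had 4, 4 and 12 UMIs a mouse for Ccne1 and 6, 2 and 16 for Ccne2.

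Ccnd1 was at 69.8, 83.9 and 61.2 CPM at day 7, below every ATV:RSV mouse and in the opposite direction to day 1. It fell by 0.82 (SE 0.17, adjusted p = 0.0109). Thinned cells with a Ccnd1 UMI were 17.3% to 22.3% against 31.9% to 34.6%. The call was lost without ATV:RSV mouse 2 (-0.78, adjusted p = 0.0534) or without day 7 mouse 3 (-0.71, adjusted p = 0.0763).

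Cdkn1a was still high, at 88.6, 90.3 and 73.2 CPM, and rose against ATV:RSV by 0.78 ± 0.18 (adjusted p = 0.0202). Its level lay between those of the controls and of day 1. The call was lost when day 7 mouse 1 or 2 or ATV:RSV mouse 2 or 3 was left out, with log2 fold changes down to 0.61 and an adjusted p up to 0.114.

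Cdkn2c was at 14.2, 14.0 and 16.4 CPM, and rose by 0.99 ± 0.13 (adjusted p = 0.000238), a call that held in 18 of 18 alternatives. In cells of neither class the day 7 mice had 14.2, 13.9 and 16.2 CPM, against the 3.45, 3.83 and 2.30 CPM of day 1. In CPM, the sums over all cells were thus alike at day 1 and day 7, and the levels in cells of neither class were not. With counts per cell, the sums over all cells were lower at day 7 than at day 1 without overlap (log2 difference -0.53).

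The other 7 genes were not called at day 7. Cdkn1b was at 82.7, 70.8 and 72.1 CPM, above every control mouse (0.25 ± 0.08, adjusted p = 0.0965), and was called with the batch as a block (adjusted p = 0.0438). Its UMIs per cell overlapped the controls. Cdk4 was at 48.0, 51.1 and 56.0 CPM (0.04 ± 0.06, adjusted p = 0.795), overlapping the controls. Ccnd3 was at 45.9, 25.6 and 24.8 CPM (-0.30 ± 0.18, adjusted p = 0.458), with mouse 1 above the other 2, and was called lower without that mouse (-0.58, adjusted p = 0.0363). Ccnd2 was at 0.849, 0.559 and 1.55 CPM, with the highest value in mouse 3. Of the 78 Ccnd2 UMIs of that mouse, 64 came from the 245 cells of cluster 2. It was also the mouse with the highest summed level of 5 neutrophil markers, 141 CPM against 0.892 to 9.56 CPM in the other groups, and the part of these in the value was not tested.

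By shares of thinned cells, 3 genes were higher and 2 lower than ATV:RSV without overlap at day 7, against 29.5% of all genes. Cdkn1a was found in 13.4% to 16.6% of cells, Cdkn1b in 20.9% to 23.6% and Cdkn2c in 4.44% to 5.45%, all higher. The lower ones were Ccnd1 and the sparse Ccne1 (0.0212% to 0.0424% of cells). Without thinning, 2 were higher and 1 lower, against 17.5% of all genes.

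The step from day 1 to day 7 was tested on its own. Of the 10 genes, 9 were called, 8 lower and 1 higher at the later day, against a background of 66.9% (33.0% higher and 33.9% lower). The log2 difference of day 7 from day 1 was -6.78 ± 0.74 for Ccne1, -6.81 ± 0.56 for Ccne2, -2.03 ± 0.17 for Ccnd1, -1.54 ± 0.06 for Cdk4 and -1.52 ± 0.17 for Cdkn1a. Cdkn1b rose by 1.24 ± 0.08 (adjusted p = 2.09e-09). Cdkn2c was the one without a call, at -0.05 ± 0.11 (adjusted p = 0.696). In cells of neither class it rose from day 1 to day 7 by 2.04 ± 0.21 (adjusted p = 5.28e-07), and with counts per cell over all cells it was lower with a call (-0.53).

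At day 14 limma-voom called 0 of the 10 genes, against a background of 0.400% of all genes. At an unadjusted p under 0.05 there were 3 of the 10 (Ccnd1, Cdkn1b and Cdkn2c) and 770 of all genes. None of the 10 microglia markers was called there, and with TMM their median log2 fold change was -0.05. By total UMIs they summed to 23220 to 23370 CPM, below every ATV:RSV mouse, a gap that can depend on scaling. Endothelial markers, none called, summed to 18.4 to 20.1 against 21.1 to 28.3 CPM, also by total UMIs. The part of these in the day 14 results was not tested. Cdkn2c was at 11.4, 11.04 and 12.7 CPM, above every control mouse (0.64 ± 0.14, adjusted p = 0.0586), and was called in 6 of 18 alternatives, among them edgeR, DESeq2 and the batch as a block (adjusted p = 0.00273 with the block). Cdkn1b was at 79.4, 77.2 and 81.6 CPM, also above every control mouse (0.33 ± 0.08, adjusted p = 0.103). It was called with the block (adjusted p = 0.0388) and by DESeq2 (adjusted p = 0.0115).

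At day 28 limma-voom called 0 of the 10 genes and 0% of all genes. At an unadjusted p under 0.05 there were 3 of the 10 (Ccnd3, Cdkn1b and Cdkn2c) and 571 of 14260 genes (4.00%). The edgeR quasi-likelihood test called 0 of the 10 (0% of all genes) and DESeq2 called 1 (0.0983% of all genes). That gene was Cdkn2c, at 9.92, 11.3 and 12.7 CPM with all 3 mice above every control mouse (0.58 ± 0.13, adjusted p = 0.630 by limma-voom and 0.0138 by DESeq2). Ccnd3 was at 27.5, 30.1 and 28.1 CPM, below every control mouse (-0.39 ± 0.18, without a call), but its UMIs per cell overlapped the controls.

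Over the whole course, all 10 genes were called by the F test over the 5 groups, where 66.5% of all genes were. The Ccnd3 call of this test was lost in cells of neither class (adjusted p = 0.0587). Cdkn2c had its 3 mice above every control mouse on each of the 4 days. The share of all genes whose CPM separated from the controls was 71.5% at day 1 and was not taken for the later days. All 4 days were set against the same 3 control mice. Its group means went from 7.56 CPM in ATV:RSV to 15.7, 14.9, 11.7 and 11.3 CPM at days 1, 7, 14 and 28.

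**Figure D4:**
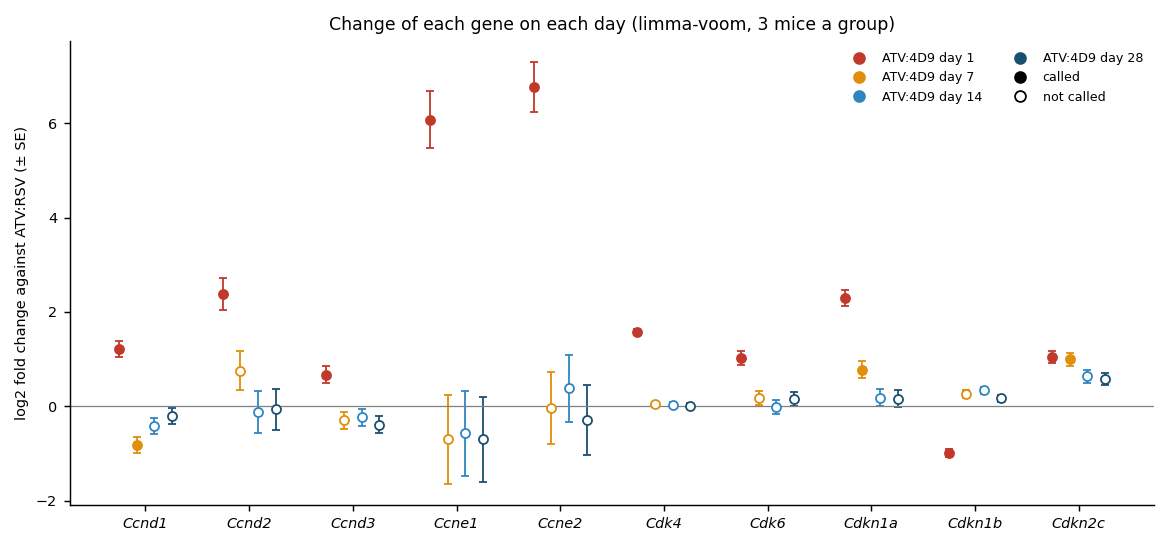
Log2 fold change against ATV:RSV (vertical axis) with its SE (whiskers) for each gene on each day from limma-voom, filled where called. All 10 are filled at day 1, Ccnd1, Cdkn1a and Cdkn2c at day 7, and none at day 14 or 28.

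The deposited clusters, numbered 0, 1 and 2, were made from these same cells, so levels in them (CPM by the total UMIs of a cluster in a mouse) are given without a test. Cluster 2 held 5607 to 6597 cells of each day 1 mouse and 74 to 245 cells of every other mouse. In the ATV:RSV mice, Cdkn1a had a steep order over the clusters, with means of 61.2 CPM in cluster 0, 16.4 in cluster 1 and 246 in cluster 2. It was highest in cluster 2 in 15 of 15 mice (14 after thinning), and higher in cluster 0 than in cluster 1 in 15 of 15. Cdkn1b was highest in cluster 0 in 15 of 15 mice.

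Levels at day 1 are set beside ATV:RSV in each cluster, and differences between the clusters were not tested. Cdkn1a in cluster 0 went from 61.2 CPM in ATV:RSV to 171 CPM at day 1 and in cluster 1 from 16.4 to 48.3 CPM, without overlap, whereas in cluster 2 the groups overlapped (246 and 220.3 CPM). In cluster 1 the day 1 mice had 28 to 111 Cdkn1a UMIs, and in thinned cells its groups overlapped there (17.6, 12.9 and 14.2 CPM in ATV:RSV and 31.8, 49.5 and 11.1 CPM at day 1). Cdkn1b in cluster 2 was at 55.3 CPM in ATV:RSV and at 26.9 CPM at day 1 without overlap, and in clusters 0 and 1 its groups overlapped. Cdk4 in cluster 2 went from 78.9 to 138 CPM. Ccnd1 overlapped in cluster 0 (139.6 and 151 CPM) and without overlap went from 112 to 149.97 CPM in cluster 1 and from 168 to 265 CPM in cluster 2. The ATV:RSV values in cluster 2 rest on 76 to 165 cells a mouse.

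Cdkn2c in cluster 2 was lower at day 1 than in ATV:RSV without overlap (14.5 against 30.3 CPM). In clusters 0 and 1 the day 1 mice had only 3 to 11 and 3 to 12 Cdkn2c UMIs each. In cluster 0 the day 1 mice lay below the controls before thinning (4.28 against 7.26 CPM), but in thinned cells the groups overlapped (9.41, 6.12 and 3.42 against 6.20, 6.65 and 9.20 CPM). In cluster 1 they overlapped before thinning (5.59 against 7.73 CPM). None of the 3 clusters had a higher mean at day 1 than in ATV:RSV, and cluster 2, where the gene was highest in all 3 ATV:RSV mice, held most cells at day 1. At day 7 Cdkn2c was at 14.7 CPM in cluster 0, 14.8 in cluster 1 and 15.1 in cluster 2, where it rested on 14 to 43 UMIs a mouse. In thinned cells the means were 15.5, 13.9 and 10.1 CPM, lowest in cluster 2. Before thinning, clusters 0 and 1 were at day 7 at 2.03 and 1.91 times their ATV:RSV means, higher without overlap. Cluster 2 was at 0.499 times its ATV:RSV mean, lower without overlap.

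**Figure D5:**
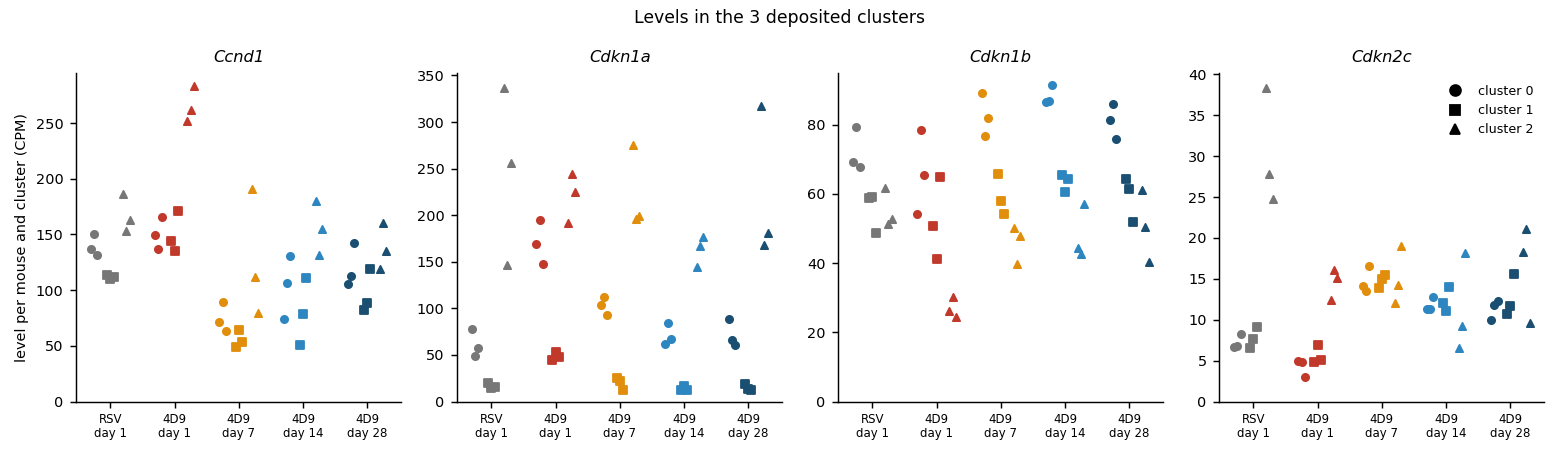
Level in CPM (vertical axes, from 0) of Ccnd1, Cdkn1a, Cdkn1b and Cdkn2c in deposited clusters 0 (circles), 1 (squares) and 2 (triangles) of each mouse, by group. Cdkn1a is highest in cluster 2 and Cdkn1b highest in cluster 0 in all 15 mice, and Cdkn2c is highest in cluster 2 in the control mice. At day 7 the Cdkn2c means of the clusters are close in the cells shown, which are not thinned, and in thinned cells cluster 2 is lowest.

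Within single day 1 cells some of the genes were found together, and only some of the pairs are given here. Thinned cells with a Ccne2 UMI had a Ccne1 UMI in 19.9% to 24.6%, and those without in 2.77% to 4.86%. A Cdkn2c UMI stood in 14.0% to 15.6% of cells with Ccne2 and in 3.24% to 3.92% of those without, and a Cdkn1a UMI in 42.1% to 49.6% against 26.6% to 31.6%. Cells with a Ccnd1 UMI had a Cdkn1b UMI in 7.40% to 8.94% and those without in 9.19% to 12.2%, lower in 3 of 3 mice. In ATV:RSV this was 18.4% to 21.5% with Ccnd1 and 18.2% to 20.5% without, higher in 3 of 3 though the ranges overlapped. At day 1 the mean levels of Ccnd1 and Cdkn1b were 265 and 26.9 CPM in cluster 2 and 151 and 66.0 CPM in cluster 0. The part of the mix of clusters in these shares was not tested. These are descriptions over cells of 3 mice at equal depth, and cells of a mouse are not replicates.

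Other genes of the pathway were listed with results of these data already known, and are given by counts, to be read against the 69.2% of all genes called at day 1 (34.7% higher and 34.6% lower). Of 13 pocket protein and E2F genes, 9 rose and 3 fell at day 1 (median log2 fold change 1.70), from E2f1, an activating E2F (6.62 ± 0.22), to Rbl2, a pocket protein of resting cells (-0.71 ± 0.10). Of 14 genes for CDK2, CDK activators and other partners, 9 (64.3%) rose and none fell (median 1.03), from Ccnh of the CDK-activating kinase (0.28 ± 0.05) to Wee1, which holds CDKs inactive (5.26 ± 0.28). Of 14 genes of cyclin and inhibitor turnover, 8 rose and 2 fell, 71.4% in all (median 0.27). Dtl, which brings p21 to its ubiquitin ligase, rose by 7.38 ± 0.46, and Gsk3b, a kinase that marks cyclin D1 for removal, fell by 0.45 (SE 0.05). Skp2, which marks the p27 protein for removal and was picked here after its value was seen, rose by 1.97 ± 0.16. Protein was not measured, and the part of Skp2 in the lower Cdkn1b transcript was not tested.

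Of the 5 other CDK inhibitors, 2 rose and 2 fell at day 1. The INK4 gene Cdkn2a rose by 3.09 ± 0.31, and the CIP/KIP gene Cdkn1c was at -2.30 ± 0.11. Cdkn1c, a relative of Cdkn1b, rose at day 7 by 0.43 ± 0.08 (adjusted p = 0.00571).

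Lists of p53 and FOXO genes were taken as well. Of 21 p53 genes tested, 7 rose and 7 fell at day 1, 66.7% in all against 69.2% of all genes (median 0.00), from Phlda3 (2.13 ± 0.39) to Trp53inp1 (-1.87 ± 0.28). Of 9 FOXO factors and targets, a family known to regulate Cdkn1b, none rose and 8 fell (median -0.87), from Sesn3 (-0.43 ± 0.13) to Pik3ip1 (-2.28 ± 0.25). Only transcripts were measured, and the part of either list in the changes of Cdkn1a and Cdkn1b was not tested.

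The lists that defined the classes moved as a whole, with 29 of 29 S phase genes higher (median 4.23, from Slbp at 1.18 ± 0.07 to Cdc6 at 7.49 ± 0.73) and 29 of 30 G2/M genes higher (median 3.53, from Cenpf at 1.81 ± 0.27 to Top2a at 4.74 ± 0.37). Of 15 immediate early genes that respond to dissociation, 1 rose (Ier3, 1.14 ± 0.22) and 9 fell, 66.7% in all against 69.2%, with Egr2 at -1.04 ± 0.22 (median -0.45), and their part in the results was not tested. At day 7, with 3.98% of all genes called, these lists gave 2 calls among CDK2 and its partners (Cdk2 at 0.32 and Cdc25a at 0.35), 2 among p53 genes (Bbc3 at 0.56 and Pmaip1 at 0.56), 1 immediate early gene (Jun at -0.25) and none among the turnover, E2F, FOXO, S phase and G2/M lists. At days 14 and 28 no gene of these lists was called.

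Over the 15 mice, the genes whose log2 CPM went most closely with each of the 10 are named by Pearson's r, as a description. Prdx1 (0.999) and Ddx39 (0.999) went with Cdk4, Utp18 (0.990) and Tfam (0.989) with Ccne2, Cenpw (0.986) and Sumo3 (0.984) with Ccne1. Mrpl37 (0.985) and Parp14 (0.982) went with Cdkn1a, Chd2 (0.986) and Arhgef2 (0.983) with Cdkn1b, 2810006K23Rik (0.973) and Snx2 (0.970) with Ccnd1. Mrpl50 (0.955) and Hyal2 (0.948) went with Ccnd2, Trim30c (0.943) and Tnk2 (0.927) with Ccnd3, Rnf4 (0.972) and Chchd4 (0.963) with Cdk6. For these 9 genes each r was lower over the 12 mice without day 1.

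Il12rb2 and Adap1 went with Cdkn2c at 0.931 and 0.925, and at 0.932 and 0.926 over the 12 mice without day 1. Among the 10 genes, Cdk4 and Ccne2 went together at 0.97 over 15 mice and at -0.05 over the 12 without day 1, and Cdkn1a and Cdkn2c at 0.67 and 0.56. The mice of a group share treatment and day, so these values describe the groups as much as the mice.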

How the data were processed

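Microglia of 15 mice (5 groups of 3, from the labels) were profiled by droplet single-cell RNA-seq. The authors made the deposited UMI counts per gene and cell with Cell Ranger (4.0.0 per the submitters' processing notes) on mm10, filtered the cells and clustered them in Seurat. The deposited mitochondrial percent per cell was computed by the authors. How doublets were treated is not given in the sources used here, and none were removed here. The 10 genes and all lists were chosen with earlier results of these data known.

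Counts were summed per mouse and tested by limma-voom in R 4.3.3 (packages limma 3.58.1 and edgeR 4.0.16) with TMM scaling and filterByExpr over all 15 mice, with Benjamini-Hochberg adjustment over the genes tested and a threshold of 0.05. The precision rests on 32341960 to 70307384 UMIs a mouse. The p-values between groups measure the spread between mice. Those between classes, with the mouse as a block, measure how much the class differences vary over the mice. Cells were thinned to 3385 UMIs for shares and classes, which left out 10204 cells. Classes were compared within the day 1 mice with the mouse as a block. The text names all 10 genes, the highest and lowest called gene of each further list at day 1, and the 2 genes with the highest r for each of the 10. Skp2, picked after its value was seen, and genes of those lists called at day 7 are named as well. The replicate number is the batch, and each batch holds every condition per the labels, which pairs the mice. The correlation of deviations from the group means was 0.0358 on average within a batch (30 pairs) and -0.0176 between batches (60 pairs). Alternatives were other scalings, no filter, edgeR, DESeq2 1.42.0, the batch as a block, only the groups compared, each mouse left out, thinned cells, and cells left out by class, by markers of another type or by depth. The tests were tried on simulated data first. A further control animal in the labels was not analysed here.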

Additional observations from a re-analysis of the deposited data

Results flagged for a closer look

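For 9 of the 10 genes the change against ATV:RSV differed between day 1 and day 7, by the limma-voom contrast of the 2 treated groups themselves, which does not involve the shared controls. The background of that contrast was 66.9% of 14260 genes called (33.0% higher and 33.9% lower). The log2 difference of day 7 from day 1 was -6.81 for Ccne2, -6.78 for Ccne1, -2.03 for Ccnd1 and -1.63 for Ccnd2. It was -1.54 for Cdk4, -1.52 for Cdkn1a, -0.97 for Ccnd3 and -0.86 for Cdk6. Cdkn1b alone went up, by 1.24.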

How the results depend on the processing

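Of 1166 values of single genes under the alternatives, 1128 kept their direction and side of the threshold or were uncalled in both fits, 21 lost a call, 15 gained one and 2 reversed, the F test over the 5 groups not counted. Both reversals were of Cdkn2c without the cells of the S and G2/M classes, at -0.90 for day 1 against ATV:RSV and 2.04 for day 7 against day 1. The count of the 10 genes called at day 1 was 10 with each mouse left out, and at day 7 it ranged from 1 (without ATV:RSV mouse 2) to 3. At day 14, with a main count of 0, edgeR called 1, DESeq2 called 2, thinned cells gave 1, cells of neither class gave 1 and leaving out the 5% of cells with most UMIs gave 1. At day 28 DESeq2 called 1 of the 10 and 14 of all genes. The causes were not tested.

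With the batch as a block, which pairs the mice, the counts were 10 at day 1, 4 at day 7, 2 at day 14 and 0 at day 28. In the comparison of S with neither, 6 were called without the block and 10 with it. Over all genes the day 7 count was 568, against 871 by DESeq2, 1014 with the block, 1199 by library size alone (26.44% higher, against 75% with TMM) and 308 by counts per cell (51.62% higher). At day 14 it was 57, against 132 by DESeq2, 122 with the block, 19 by library size alone and 0 by counts per cell. Ccne1, Ccne2 and Ccnd2 rest on few UMIs outside day 1, which limits what could be detected there.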
